A study of Cyprinodon variegatus with 4 samples.

Results

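The lipid carriers and fatty acid enzymes of whole sheepshead minnow larvae (Cyprinodon variegatus, a small estuarine fish) were described in 4 RNA libraries. The members are the annotations whose description opens with the name of an apolipoprotein, a fatty acid-binding protein (FABP), microsomal triglyceride transfer protein, lipoprotein lipase, a perilipin, a receptor related to the low-density lipoprotein (LDL) receptor, a long-chain fatty acid CoA ligase, an acyl-CoA desaturase, fatty acid synthase, a carnitine acyltransferase or an elongase of very long chain fatty acids. The rule found 46 annotations on 81 assembled contigs, out of 12844 annotations on 24404 contigs. It found 0 annotations for acyl-CoA desaturase and 0 for fatty acid synthase, so 9 of the 11 families are described.

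Each group was 1 library of whole-body RNA: an untreated control, a surfactant control given Tween 80 (a non-ionic detergent) at 0.001%, larvae given microfibres of the clothing polyester polyethylene terephthalate (PET) at 10 mg/L (PET 10), and larvae given such fibres at 100 mg/L (PET 100). Exposure lasted 10 days in every group, and the labels give a stage of 72 h after fertilization, read here as its start. The labels do not say how many larvae made a library, nor whether Tween 80 was present with the fibres. With 1 library per group there is no replicate error, no difference below has a replicate check, and no p-value was computed.

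Apolipoproteins carry lipids through plasma on lipoprotein particles, whose triglyceride is loaded in the endoplasmic reticulum of enterocytes and hepatocytes by microsomal triglyceride transfer protein. Fatty acid-binding proteins are small cytosolic carriers, each typical of certain tissues, such as fabp10a of the fish liver, fabp2 of the gut lining and fabp3 of muscle. Inside the cell a fatty acid is joined to CoA by a ligase and is then lengthened by elongases, stored in droplets coated by perilipins, or passed into mitochondria by the carnitine palmitoyltransferases.

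Expression was given as FPKM, mapped fragments scaled for contig length and library size, and was summed over the contigs of each annotation. The libraries summed to between 1039707 and 1080208 FPKM and had between 143907 and 152374 contigs above 0. Absolute depth is unknown. Heaped ratios among low contigs put the surfactant control at roughly 80.9%, PET 10 at 88.9% and PET 100 at 79.0% of the depth of the untreated control. Annotated contigs held between 42.7% and 43.2% of the FPKM of a library, and the contigs with no name could not be searched for further members. The members together summed to 3979 FPKM in the untreated control, 4573 in the surfactant control, 4416 in PET 10 and 4687 in PET 100, or between 0.888% and 1.03% of annotated FPKM. The 3 largest members held between 72.6% and 75.4% of that sum.

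Members were compared where their mean over the libraries reached 1 FPKM. By this filter 34 of the 46 members passed, 22 of them with a mean of at least 10 FPKM and 12 between 1 and 10 FPKM. The other 12 had a mean under 1 FPKM, and none of those exceeded 1.67 FPKM in any library. Of the 46 members, 26 rest on a single contig, and the contigs are short, with listed lengths of 237 to 3048 bases and a median of 389. Several members share a protein name, since the 46 descriptions hold 33 names. Those of 1 name differ in the Swiss-Prot entry matched, which is given in brackets where needed. By the gene ontology terms in the table, 16 members are integral membrane proteins, 9 are lipid-binding and 7 are found in the extracellular space.

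Expression of the 22 members at or above 10 FPKM was close between libraries. The ratio of the highest to the lowest library ran from 1.03 to 1.85, with a median of 1.20, beside a median of 1.17 over all 2765 annotations at this level. None of the 22 was 2-fold apart between any pair of libraries, but only 1.41% of all annotations at this level were. The untreated control was the lowest library for 12 of the 22, against 31.0% of all annotations at this level, and PET 100 was the highest for 10 of the 22, against 40.8% of all.

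**Figure D1:**
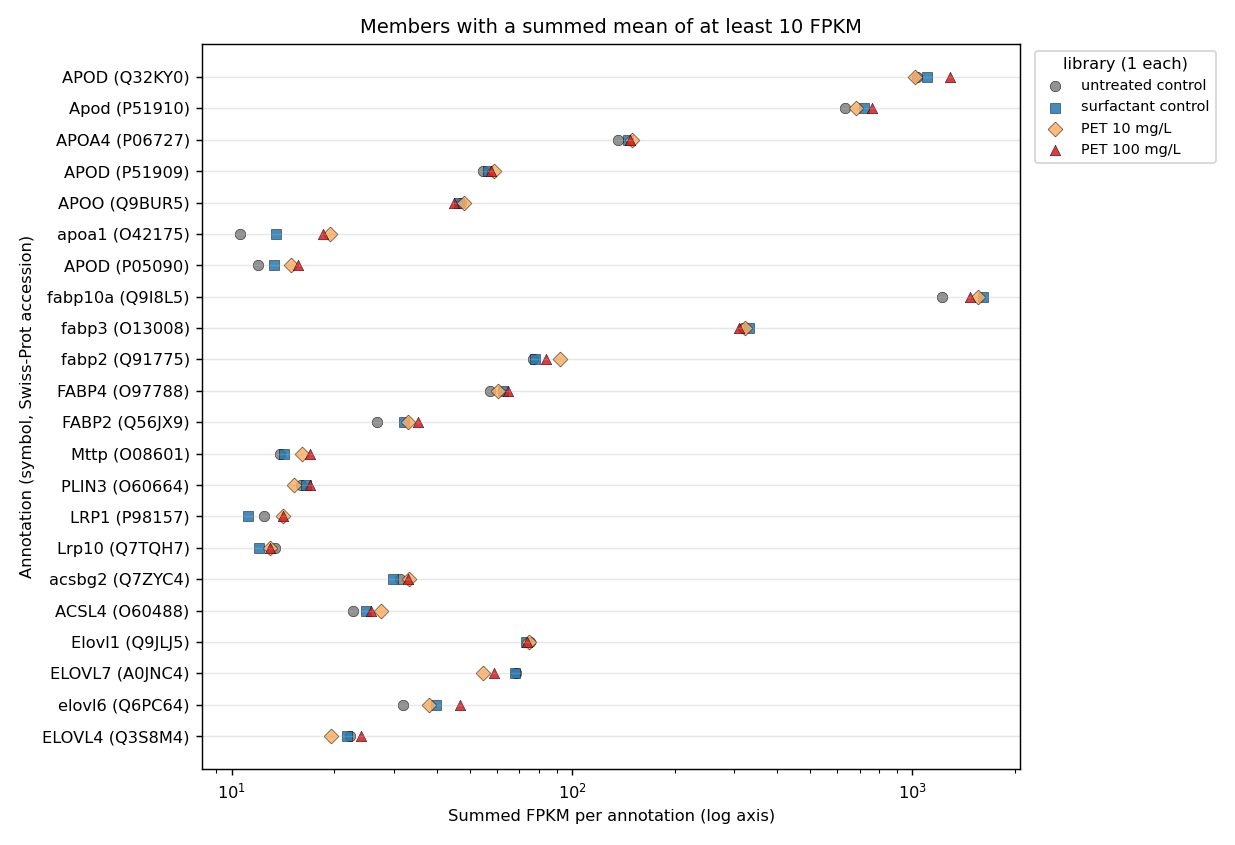
Summed FPKM (log axis) of the 22 members with a mean of at least 10 FPKM, grouped by family, with 1 point per library. The points of a member mostly lie close together, and apoa1 has the widest spread, from 10.5 FPKM in the untreated control to 19.4 FPKM in PET 10.

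Apolipoprotein D (a lipocalin that binds small lipids rather than a structural protein of lipoproteins) made up most of the signal of the annotated apolipoproteins. The rule matched apolipoproteins A-I, A-IV, D, M and O only, so apolipoproteins B, C and E are not described. Contigs with no name could not be searched for them. The largest annotation of apolipoprotein D (Q32KY0) was at 1035 FPKM in the untreated control, 1102 in the surfactant control, 1019 in PET 10 and 1293 in PET 100. PET 100 was the highest library, and the other libraries lay within a narrow band. The log2 ratio of PET 100 to the surfactant control was 0.23, and that of PET 10 was -0.11. Every log2 ratio given was taken after adding 0.5 FPKM to both sums, so ratios of low genes are understated.

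A second apolipoprotein D annotation (P51910) was at 633 FPKM in the untreated control, 720 in the surfactant control, 685 in PET 10 and 763 in PET 100. Another (P51909) was at 54.7 FPKM in the untreated control, 56.6 in the surfactant control, 58.8 in PET 10 and 57.7 in PET 100. The lowest of them (P05090) was at 11.9 FPKM in the untreated control, 13.3 in the surfactant control, 14.9 in PET 10 and 15.7 in PET 100. Of these, P51910 was highest in PET 100 with the surfactant control next, P51909 was nearly level, and P05090 had its libraries in order of dose, with the untreated control below the surfactant control. Whether the 4 annotations are separate genes was not tested.

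Apolipoprotein A-I (apoa1), the main protein of high-density lipoproteins, had the widest relative spread of the 22. It was at 10.5 FPKM in the untreated control, 13.5 in the surfactant control, 19.4 in PET 10 and 18.6 in PET 100. Both PET libraries stood above both libraries without fibres. The log2 ratio to the surfactant control was 0.51 for PET 10 and 0.45 for PET 100, and that of the surfactant control to the untreated control was 0.34. Over all 2765 annotations at this level, the central 95% of ratios of PET 10 to the surfactant control ran from -0.34 to 0.45, and those of PET 100 from -0.36 to 0.50.

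The apoa1 value is the sum of 2 contigs that differed in their order of libraries. The contig TR37748|c0_g1_i1, listed at 1099 bases, was at 4.23 FPKM in the untreated control, 3.12 in the surfactant control, 9.68 in PET 10 and 10.02 in PET 100. The contig TR28778|c0_g1_i1, listed at 279 bases, was at 6.30 FPKM in the untreated control, 10.36 in the surfactant control, 9.75 in PET 10 and 8.53 in PET 100. The excess in both PET libraries over the surfactant control therefore lay on the longer contig alone, with log2 ratios of 1.49 in PET 10 and 1.54 in PET 100, whereas the shorter one was slightly lower than in the surfactant control. Whether they belong to 1 gene was not tested.

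Apolipoprotein A-IV (APOA4), which intestinal cells secrete on fat-rich lipoproteins, was at 137 FPKM in the untreated control, 146 in the surfactant control, 150 in PET 10 and 148 in PET 100. It stayed within a ratio of 1.10 across the libraries. Apolipoprotein O (APOO), which despite its name is known chiefly as a protein of the mitochondrial inner membrane, was at 47.2 FPKM in the untreated control, 46.4 in the surfactant control, 48.1 in PET 10 and 44.9 in PET 100. Apolipoprotein M (APOM), the carrier of sphingosine-1-phosphate on high-density lipoproteins, lay below the level of 10 FPKM, at 7.65 FPKM in the untreated control, 7.05 in the surfactant control, 7.66 in PET 10 and 11.1 in PET 100. It was highest in PET 100, with the other libraries near each other and a log2 ratio to the surfactant control of 0.62. The 8 apolipoproteins summed to 1937 FPKM in the untreated control, 2105 in the surfactant control, 2002 in PET 10 and 2351 in PET 100, a sum in which the largest annotation makes 53.0%.

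Microsomal triglyceride transfer protein (Mttp), the loader of lipoprotein particles, was at 13.8 FPKM in the untreated control, 14.2 in the surfactant control, 16.0 in PET 10 and 17.0 in PET 100. The libraries stood in order of dose, in small steps. The log2 ratio to the surfactant control was 0.17 for PET 10 and 0.25 for PET 100, inside the central 95% of annotations at this level in both cases. It rests on a single contig listed at 242 bases. Lipoprotein lipase (LPL), which releases fatty acids from circulating particles, was listed at 0.20 FPKM in the untreated control and at 0 in the other libraries, and could not be compared.

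**Figure D2:**
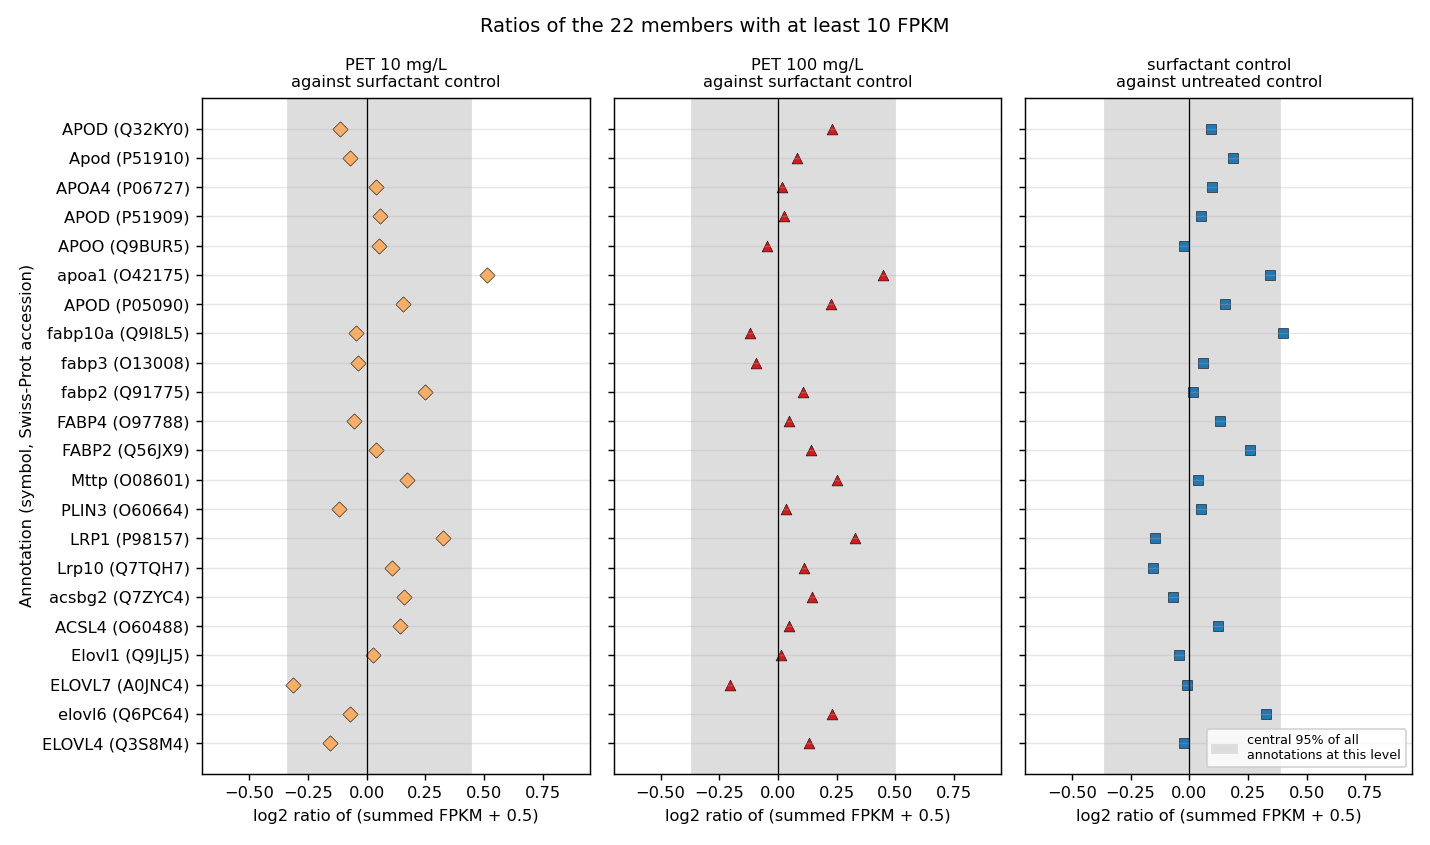
Log2 ratios of summed FPKM plus 0.5 for the 22 members with a mean of at least 10 FPKM, for PET 10 and PET 100 against the surfactant control and for the surfactant control against the untreated control. The grey band holds the central 95% of the 2765 annotations at this level; apoa1 lies beyond it in PET 10 (0.51) and fabp10a in the surfactant control (0.40).

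Liver basic fatty acid-binding protein (fabp10a), the member of this family typical of the fish liver, was the most abundant member. It was at 1222 FPKM in the untreated control, 1609 in the surfactant control, 1557 in PET 10 and 1481 in PET 100. The untreated control was the low library, and both PET libraries lay between it and the surfactant control. The log2 ratio of the surfactant control to the untreated control was 0.40, at the edge of the central 95% of annotations at this level, which ended at 0.39. Against the surfactant control the PET libraries were at -0.05 for PET 10 and -0.12 for PET 100, while against the untreated control they were at 0.35 and 0.28. The choice of library without fibres therefore sets the direction for fabp10a.

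The 2 intestinal annotations (fabp2 and FABP2), carriers of dietary fatty acids in enterocytes, both had the PET libraries above both libraries without fibres. The larger (fabp2, Q91775) was at 76.7 FPKM in the untreated control, 77.6 in the surfactant control, 92.2 in PET 10 and 83.6 in PET 100. The smaller (FABP2, Q56JX9) was at 26.6 FPKM in the untreated control, 31.9 in the surfactant control, 32.9 in PET 10 and 35.2 in PET 100. The libraries of the smaller one stood in order of dose, whereas the larger one was highest in PET 10. Their log2 ratios to the surfactant control were 0.25 and 0.04 in PET 10 and 0.11 and 0.14 in PET 100, in the order fabp2 and FABP2. For FABP2 the largest step lay between the libraries without fibres, with a log2 ratio of 0.26.

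Heart-type FABP (fabp3), the carrier of muscle and heart, was at 317 FPKM in the untreated control, 330 in the surfactant control, 321 in PET 10 and 309.5 in PET 100. Adipocyte FABP (FABP4) was at 57.3 FPKM in the untreated control, 62.7 in the surfactant control, 60.5 in PET 10 and 64.9 in PET 100. Neither departed from the surfactant control by more than 0.1 on the log2 scale in a PET library. The liver-type annotations of the FABP1 kind were low throughout. L-FABP (P80049), on 1 contig, was at 1.79 FPKM in the untreated control, 4.67 in the surfactant control and 1.14 in PET 10, and was listed at 0 in PET 100. The related fabp1 (P83409) was at 1.35 FPKM in the untreated control, 2.43 in the surfactant control, 2.28 in PET 10 and 1.92 in PET 100. Both had their highest value in the surfactant control, but in PET 100 fabp1 was still above the untreated control while L-FABP was listed at 0. FABP1 (P07148) was listed above 0 in the surfactant control alone, at 0.91 FPKM, and brain-type FABP7 was listed at 0 in every library. All 9 FABP annotations together summed to 1704 FPKM in the untreated control, 2120 in the surfactant control, 2067 in PET 10 and 1976 in PET 100, with fabp10a making 74.6% of the sum.

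Of the receptors related to the LDL receptor, LRP1, which clears remnant lipoproteins and many other ligands, was at 12.4 FPKM in the untreated control, 11.2 in the surfactant control, 14.1 in PET 10 and 14.1 in PET 100. Both PET libraries were above both libraries without fibres, with log2 ratios to the surfactant control of 0.32 in PET 10 and 0.33 in PET 100. Its largest contig, TR53299|c0_g1_i1, did not keep that order, at 6.56 FPKM in the untreated control, 5.31 in the surfactant control, 6.23 in PET 10 and 7.86 in PET 100, and its ratio in PET 10 was 0.21. The contig TR197658|c0_g1_i1 added 0.82 FPKM in PET 10 and was listed at 0 in the other libraries. Lrp10 was at 13.4 FPKM in the untreated control, 11.98 in the surfactant control, 12.9 in PET 10 and 13.0 in PET 100. Megalin (Lrp2), an endocytic receptor of kidney and other absorptive epithelia, was lower in both PET libraries than in both libraries without fibres, at 7.48 FPKM in the untreated control, 8.19 in the surfactant control, 6.68 in PET 10 and 6.0 in PET 100. Lrp3 was also lower in both PET libraries, at 1.81 FPKM in the untreated control, 2.03 in the surfactant control, 0.78 in PET 10 and 1.49 in PET 100. Its largest contig, TR119770|c5_g1_i1, was at 0.95 FPKM in the untreated control, 0.98 in the surfactant control, 0.78 in PET 10 and 0.86 in PET 100. The contig TR18253|c0_g1_i1 was listed at 0 in PET 10, and TR119770|c5_g1_i2 was listed at 0 in both PET libraries. The receptors thus did not share a direction, and their sum stayed between 39.3 and 41.6 FPKM.

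LRP1B was highest in the surfactant control, at 7.48 FPKM there, against 3.30 FPKM in the untreated control, and was at 4.23 FPKM in PET 10 and 4.62 in PET 100. Most of that excess came from the contig TR193879|c0_g1_i1, which was at 3.42 FPKM in the surfactant control and listed at 0 in the other libraries. Its contig TR111561|c1_g1_i1 was at 1.61 FPKM in the untreated control, 2.48 in the surfactant control, 2.54 in PET 10 and 2.49 in PET 100. In a file of estimates without counts an exact 0 can be a failed estimate, so a contig at 0 is described here only as listed at 0.

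Among the CoA ligases, ACSL4 (O60488), which prefers arachidonic acid, was at 22.7 FPKM in the untreated control, 24.8 in the surfactant control, 27.4 in PET 10 and 25.6 in PET 100. Its contigs TR206870|c0_g1_i1 (1.21 FPKM) and TR51859|c0_g1_i1 (1.67 FPKM) were listed above 0 in the surfactant control alone. Its largest contig, TR124784|c2_g1_i1, was at 18.7 FPKM in the untreated control, 17.5 in the surfactant control, 20.9 in PET 10 and 21.5 in PET 100. A second annotation of the name (Acsl4, O35547) was at 1.68 FPKM in the untreated control, 4.07 in the surfactant control, 3.74 in PET 10 and 2.58 in PET 100. Both hold contigs of 1 assembly gene, TR124784|c2_g1, so the assembler treated them as isoforms, and their shares of the reads can trade against each other. The larger was highest in PET 10 and the smaller in the surfactant control.

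The bubblegum-family ligase acsbg2 (Q7ZYC4) was almost level in sum, at 31.2 FPKM in the untreated control, 29.7 in the surfactant control, 33.2 in PET 10 and 32.9 in PET 100. Its 2 contigs, isoforms of 1 assembly gene, differed in their order of libraries beneath that sum. TR112130|c1_g1_i1 was at 14.5 FPKM in the untreated control, 17.5 in the surfactant control, 18.8 in PET 10 and 21.9 in PET 100. TR112130|c1_g1_i2 was at 16.7 FPKM in the untreated control, 12.2 in the surfactant control, 14.4 in PET 10 and 10.9 in PET 100. The first stood in order of dose, and the second was highest in the untreated control and lowest in PET 100. On the log2 scale the largest step of the first (0.26) lay between the libraries without fibres. ACSL1 was at 1.03 FPKM in the untreated control, 1.40 in the surfactant control, 0.92 in PET 10 and 1.12 in PET 100, with no order by dose.

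**Figure D3:**
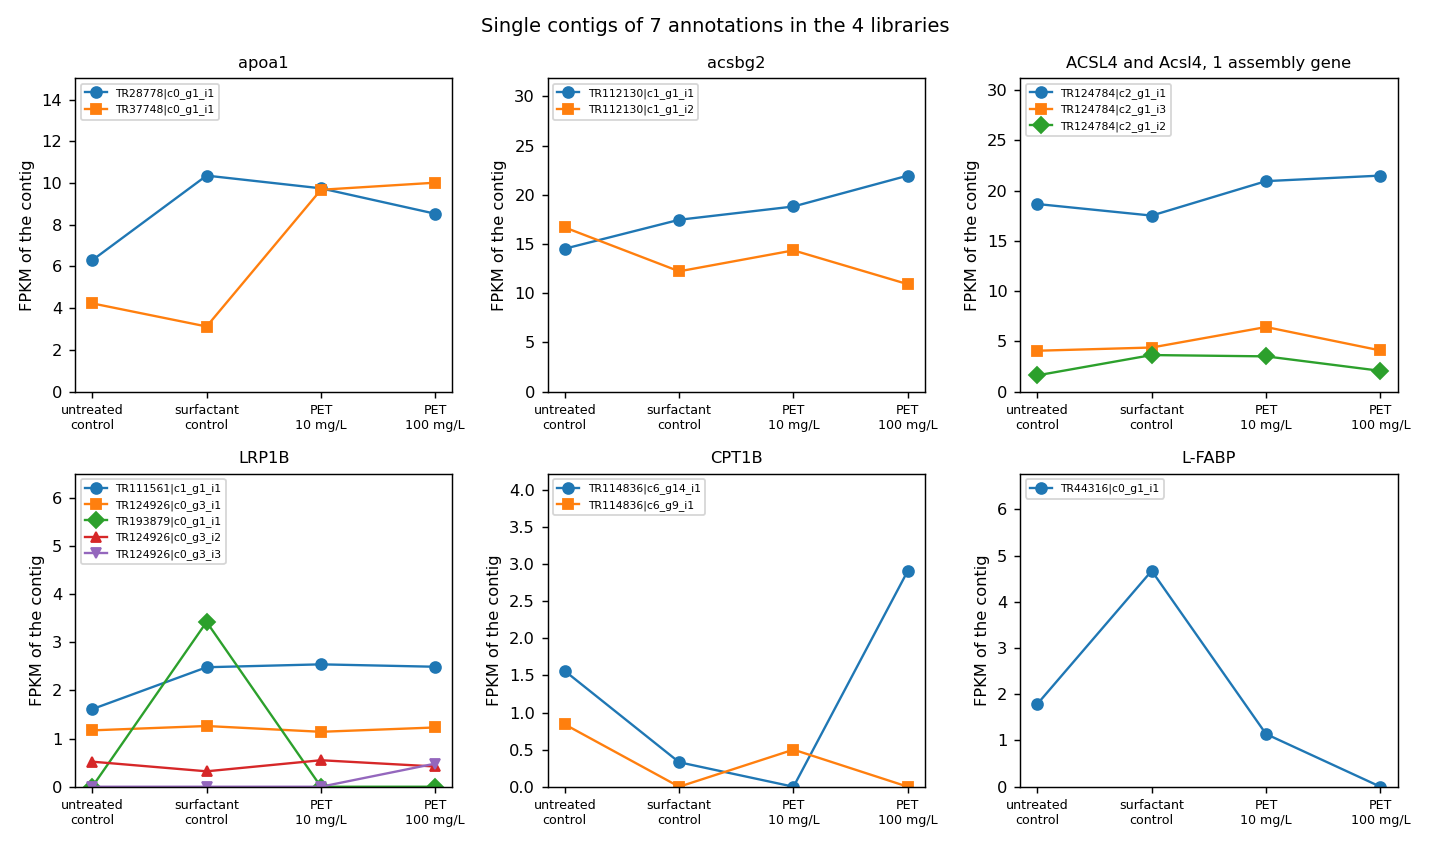
FPKM of the single contigs behind 7 low or divided annotations, by library, with 1 line per contig. For ACSL4 and Acsl4 only the contigs of assembly gene TR124784|c2_g1 are drawn. The longer apoa1 contig stood at 9.68 and 10.02 FPKM in the PET libraries while the other did not follow, and of the 2 acsbg2 contigs one was lowest and the other highest in the untreated control.

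The carnitine palmitoyltransferases carry long-chain fatty acids into mitochondria for oxidation, with CPT1 at the outer membrane as the regulated step and CPT2 at the inner one. Both were low. The muscle isoform CPT1B was at 2.40 FPKM in the untreated control, 0.33 in the surfactant control, 0.50 in PET 10 and 2.91 in PET 100. The untreated control and PET 100 were alike, as were the surfactant control and PET 10. CPT1B passed the filter through the untreated control and PET 100, and was under 1 FPKM in the other libraries. Of its 2 contigs, TR114836|c6_g14_i1 was listed at 0 in PET 10, and TR114836|c6_g9_i1 was listed at 0 in the surfactant control and in PET 100. CPT2 (cpt2), on 1 contig, was at 2.23 FPKM in the untreated control, 1.54 in the surfactant control, 4.90 in PET 10 and 3.81 in PET 100. Both PET libraries were above both libraries without fibres, with log2 ratios to the surfactant control of 1.40 in PET 10 and 1.08 in PET 100, but of 0.98 and 0.66 to the untreated control. Carnitine acetyltransferase (CRAT) did not exceed 0.29 FPKM.

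Elongases add carbons to fatty acyl-CoA in the endoplasmic reticulum. ELOVL7, which acts on saturated long chains, was at 68.5 FPKM in the untreated control, 68.1 in the surfactant control, 54.6 in PET 10 and 59.0 in PET 100. It was the sole member at or above 10 FPKM with both PET libraries below both libraries without fibres in the values as deposited, with log2 ratios to the surfactant control of -0.31 in PET 10 and -0.21 in PET 100. Most of the sum lay on the contig TR102429|c2_g1_i1, at 66.0 FPKM in the untreated control, 66.9 in the surfactant control, 52.8 in PET 10 and 56.7 in PET 100.

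The elongase elovl6 (Q6PC64), which lengthens the product of fatty acid synthase, was at 31.8 FPKM in the untreated control, 39.9 in the surfactant control, 38.0 in PET 10 and 46.9 in PET 100. It was lowest in the untreated control and highest in PET 100, with the other pair close to each other. Its 3 contigs were each lowest in the untreated control. A second annotation of the name (Elovl6, Q920L5) was at 8.14 FPKM in the untreated control, 8.75 in the surfactant control, 10.8 in PET 10 and 10.2 in PET 100.

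ELOVL4, known for the very long chains of photoreceptors and skin, was at 22.2 FPKM in the untreated control, 21.8 in the surfactant control, 19.5 in PET 10 and 23.9 in PET 100. One of its contigs and one of ELOVL7 belong to the same assembly gene, TR111196|c0_g1, so these elongases may share reads. Elovl1 (Q9JLJ5) had the narrowest range of the 22, at 75.4 FPKM in the untreated control, 73.2 in the surfactant control, 74.6 in PET 10 and 73.9 in PET 100. A low annotation of that name (ELOVL1, Q9BW60) was listed at 0 in the untreated control and was at 0.91 FPKM in the surfactant control, 2.61 in PET 10 and 1.79 in PET 100. The 8 elongases summed to between 200.1 and 216 FPKM.

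Perilipins coat lipid droplets. Perilipin-3 (PLIN3) was at 16.0 FPKM in the untreated control, 16.6 in the surfactant control, 15.2 in PET 10 and 16.9 in PET 100, within a ratio of 1.12. Perilipin-2 (PLIN2), the usual droplet protein of liver, was at 0.18 FPKM in the untreated control, 0.68 in the surfactant control and 0.62 in PET 10, and was listed at 0 in PET 100. At this level no order of libraries can be read. The same holds for Acsl6, listed at 0 in both libraries without fibres and at 1.67 FPKM in PET 10 and 0.71 in PET 100, and for Acsl5, listed above 0 in PET 10 alone (0.95 FPKM). Lrp8 lay between 0.72 and 1.03 FPKM. The remaining members under 1 FPKM, ELOVL6 (Q5ZJR8), Elovl4 (Q9EQC4), ACSBG2 (Q5ZKR7) and Acsl4 (Q9QUJ7), were each listed at 0 in 1 or more libraries.

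**Figure D4:**
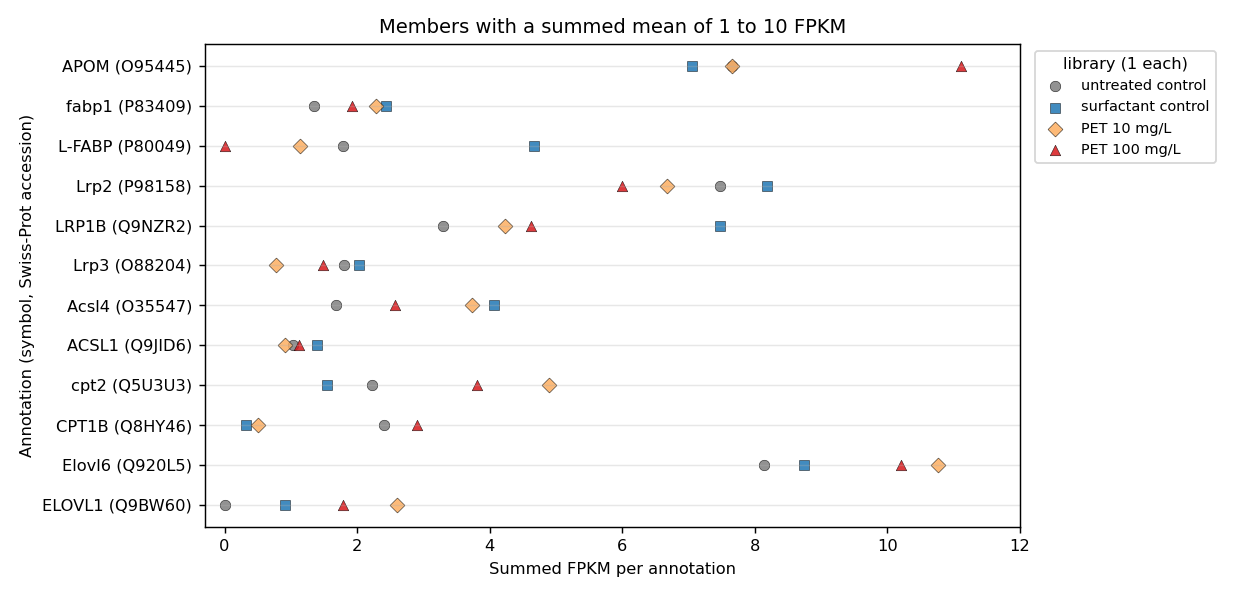
Summed FPKM (linear axis) of the 12 members with a mean between 1 and 10 FPKM, with 1 point per library. The libraries fall in different orders from member to member: L-FABP and LRP1B are highest in the surfactant control, cpt2 and ELOVL1 in PET 10, and APOM and CPT1B in PET 100.

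Counted against the surfactant control, few members were 2-fold apart, and all of those lay between 1 and 10 FPKM. In PET 10, 2 of the 34 members were at least 2-fold higher (cpt2 and ELOVL1 Q9BW60), beside 3.19% of all 7421 annotations past the same filter, and 1 was at least 2-fold lower (L-FABP), beside 2.3%. In PET 100, 2 were higher (cpt2 and CPT1B), beside 3.38%, and 1 was lower (L-FABP), beside 2.4%. The gene cpt2 was named after its values were seen. These counts are small, and the background is not matched for level. Of the 34 members 22 had a mean of at least 10 FPKM, against 2765 of the 7421 annotations. At that level 1.41% of all annotations were 2-fold apart between any pair of libraries. The counts were therefore not read as above or below the background. ELOVL1, L-FABP and CPT1B each passed the filter through the libraries in which they were high. Their counts, here and in the comparisons below, are therefore partly set by the filter. The median log2 ratio of the 34 members was 0.03 in PET 10 and 0.07 in PET 100, and that of all annotations was 0.03 and 0.08.

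Against the untreated control, ELOVL1 (Q9BW60, listed at 0 there) was counted as at least 2-fold higher in both PET libraries, 1 of 34 in each, beside 3.53% of all annotations in PET 10 and 3.69% in PET 100. At least 2-fold lower were CPT1B in PET 10, beside 2.03%, and L-FABP in PET 100, beside 1.85%. The median log2 ratio of the members was 0.11 in PET 10 and 0.18 in PET 100, beside 0.03 and 0.08 for all annotations. ELOVL1 in PET 10 was the sole member at least 2-fold higher than both libraries without fibres, beside 1.43% of all annotations, and 0 were lower by as much, beside 1.06%. L-FABP in PET 100 was the sole one at least 2-fold lower than both, beside 1.04%, and 0 were higher, beside 1.47%. As said, ELOVL1, L-FABP and CPT1B passed the filter through the libraries in which they were high. The comparisons of both PET libraries share their control libraries, so they are not independent of each other.

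The surfactant control was also set against the untreated control. In the surfactant control 4 of the 34 members were at least 2-fold higher (L-FABP, LRP1B, ELOVL1 Q9BW60 and Acsl4 O35547), beside 2.91% of all annotations, and 1 was at least 2-fold lower (CPT1B), beside 2.43%. The median log2 ratio was 0.10 for the members and 0.00 for all annotations, with 24 of the 34 members above 0, beside 50.3% of all annotations. The 5 members past 2-fold stand beside 3 in each PET library against the surfactant control, an order that other settings do not keep: without the filter the counts were 6 in the surfactant control, 6 in PET 10 and 8 in PET 100, and with a pseudocount of 1 each was 2. Between the concentrations, PET 100 had 1 member at least 2-fold higher than PET 10 (CPT1B), beside 2.75%, and 1 at least 2-fold lower (L-FABP), beside 2.51%, with a median of -0.01 for the members and 0.05 for all annotations.

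At a threshold of 1.25-fold among the 22 members at or above 10 FPKM, apoa1 and LRP1 were higher than the surfactant control in PET 10, beside 5.5% of annotations at this level, and 0 were lower, beside 2.78%. The same 2 members were higher in PET 100, beside 7.99%, and 0 were lower, beside 3.25%. LRP1 lay at the threshold and was not past it in PET 10 with its largest contig alone (0.21), nor in either PET library with a pseudocount of 1 (0.31 in both) or after median-of-ratios scaling (0.30 in PET 10 and 0.23 in PET 100). Against the untreated control, apoa1 and fabp10a were higher in PET 10 (background 6.65%) and ELOVL7 was lower (background 3.69%). In PET 100, apoa1, elovl6, FABP2 and APOD P05090 were higher (background 9.19%) and 0 were lower (background 3.18%). In the surfactant control, fabp10a, apoa1 and elovl6 were higher than in the untreated control (background 4.12%) and 0 were lower (background 3.65%). Here elovl6 (0.32) lay at the threshold, as did ELOVL7 in PET 10 against the untreated control (-0.32). APOD Q32KY0 was the sole member past 1.25-fold between the concentrations, higher in PET 100 (background 5.14%), with 0 lower (background 3.8%). Median-of-ratios scaling moved the median log2 ratio of all annotations by -0.03 in PET 10 and -0.09 in PET 100 against the untreated control. Between the concentrations it moved by -0.06. Such moves take fabp10a in PET 10 (0.35), FABP2 (0.40) and APOD P05090 (0.38) in PET 100, and APOD Q32KY0 (0.34) under the threshold. Against the surfactant control, ELOVL7 in PET 10 (-0.31) lay just short of the lower threshold. Scaling moved the median of all annotations by -0.03 in that comparison, and such a move takes ELOVL7 past it.

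The order of the libraries gave a further description of the abundant members. Both PET libraries were above both libraries without fibres in 10 of the 22, namely apoa1, APOA4, APOD P51909, APOD P05090, fabp2, FABP2, Mttp, LRP1, acsbg2 and ACSL4, beside 26.7% of annotations at this level. Both were below in 1 (ELOVL7), beside 13.1%. The libraries stood in full order of dose, from the untreated control through the surfactant control to PET 100, in 3 of them (APOD P05090, FABP2 and Mttp), beside 9.04%, and in the reverse order in 0, beside 3.69%. The step between the untreated control and the surfactant control is not a step of fibre dose. Over all 34 members the counts were 14 above, beside 26.2%, and 4 below, beside 11.6%, with the same 3 in full order of dose, beside 8.15%, and 0 in the reverse order, beside 2.59%. These orders depend on scaling, and the median of all annotations was itself 0.08 (log2) higher in PET 100 than in the surfactant control. After median-of-ratios scaling 6 of the 22 were above (apoa1, APOD P05090, fabp2, FABP2, Mttp and LRP1), beside 14.4% of annotations at this level, and 4 were below (ELOVL7, Elovl1, fabp3 and PLIN3), beside 25.6%.

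Summed markers of the tissues that make most lipid carriers also differed between the libraries. Hepatocyte markers, with 17 of 26 annotations past the filter, summed to 2492 FPKM in the untreated control, 2961 in the surfactant control, 2964 in PET 10 and 3585 in PET 100. Of the 15 names on that list 5 matched no annotation, and the sum was led by alpha-1-antitrypsin homolog and serotransferrin-1. It also took in plasminogen activator inhibitor 1 RNA-binding protein by its name, which is no liver marker and lay between 31.8 and 35.9 FPKM. Against the surfactant control, 9 of the 17 were higher in PET 10, beside 55.1% of all annotations, and 14 in PET 100, beside 63.5%. In the surfactant control 11 were above the untreated control, beside 50.3%. Enterocyte markers, with 9 of 13 annotations past the filter, summed to 199 FPKM in the untreated control, 233 in the surfactant control, 246.5 in PET 10 and 254 in PET 100, led by meprin A subunit beta and the peptide transporter SLC15A1. Of the 12 names on the enterocyte list 5 matched no annotation. Against the surfactant control, 5 of the 9 were higher in PET 10 and 7 in PET 100, beside the same shares of all annotations. In the surfactant control 6 were above the untreated control. In RNA of whole larvae, fewer cells of a type and less RNA per cell cannot be told apart. The part of liver or gut tissue in the values of fabp10a, apoa1, fabp2 and Mttp was not tested.

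Muscle markers, with 18 of 21 annotations past the filter, summed to 20219 FPKM in the untreated control, 21345 in the surfactant control, 19838 in PET 10 and 19574 in PET 100. The sum was led by parvalbumin beta, lowest in the untreated control (9862 FPKM), and creatine kinase M-type, highest there (8387 FPKM). Of the 18 annotations, 15 were above the untreated control in PET 10, beside 54.8% of all annotations, and 15 in PET 100, beside 63.1%. In the surfactant control 15 were also above it, beside 50.3%. The sum was nevertheless below the untreated control in both PET libraries. The sum thus does not speak for the list, and fabp3 shared only its highest and lowest libraries. Glial markers, with 5 of 9 past the filter, summed to between 143 and 167 FPKM, with glial fibrillary acidic protein listed at 0 in every library, as was brain-type FABP7. The adipocyte list matched no annotation of adiponectin itself, since both of its entries of that name are adiponectin receptors, and its sum of 102 to 112 FPKM cannot stand for fat cells.

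**Figure D5:**
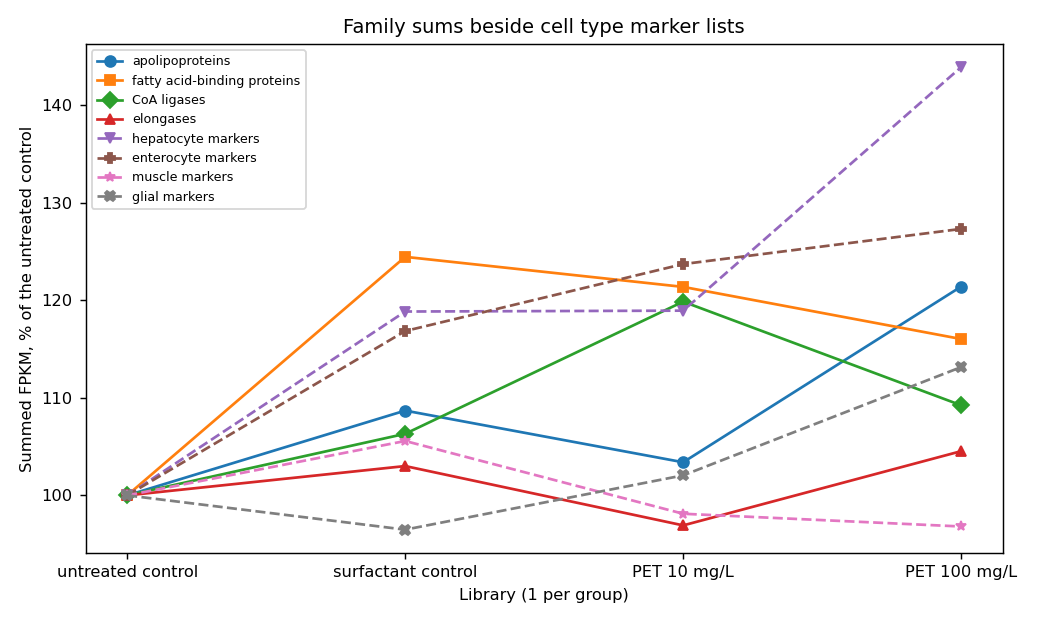
Summed FPKM of 4 member families (solid lines) and 4 cell type marker lists (dashed lines) in each library, as a percentage of the untreated control; the axis does not start at 0. Hepatocyte markers reached 144% in PET 100 and enterocyte markers 127%, while the fatty acid-binding proteins were highest in the surfactant control, at 124%.

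Other genes of lipid handling were read from lists of names. Of 10 annotations for lipoprotein receptors, lipid transfer and vitellogenin past the filter, 0 were 2-fold apart in any of the 6 comparisons. In a single comparison, between 2.75% and 3.69% of all annotations were at least 2-fold higher, and between 1.85% and 2.51% lower. For so few annotations a count of 0 is near those shares. ATP-binding cassette A1, which passes cholesterol to apolipoprotein A-I, was at 17.3 FPKM in the untreated control, 16.1 in the surfactant control, 18.6 in PET 10 and 18.6 in PET 100. Angiopoietin-related protein 3, a liver-secreted inhibitor of lipoprotein lipase, was at 26.3 FPKM in the untreated control, 28.9 in the surfactant control, 19.5 in PET 10 and 21.6 in PET 100, lower in both PET libraries. CD36 (platelet glycoprotein 4), a fatty acid receptor, lay between 19.9 and 24.4 FPKM, and the yolk precursor vitellogenin did not exceed 0.89 FPKM.

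Other carriers were more abundant. Retinol-binding protein 4-A, a liver product that carries vitamin A in plasma, was at 398 FPKM in the untreated control, 484 in the surfactant control, 498 in PET 10 and 586 in PET 100, in order of dose. On the log2 scale its largest step (0.28) lay between the libraries without fibres. Gastrotropin (P51161), the ileal bile acid carrier of the FABP family, was at 482 FPKM in the untreated control, 502 in the surfactant control, 616 in PET 10 and 495 in PET 100. Non-specific lipid-transfer protein, a sterol carrier of peroxisomes, was at 74.3 FPKM in the untreated control, 81.9 in the surfactant control, 86.65 in PET 10 and 90.0 in PET 100. It was also in order of dose, as were 9.04% of all annotations with a mean of at least 10 FPKM. Its largest step lay between the libraries without fibres. The log2 ratio of PET 100 to PET 10 was 0.05, as was the median of all annotations. Of the 6 annotations of this list past the filter, 2 were at least 2-fold higher in PET 100 than in the surfactant control, beside 3.38% of all annotations, both of them low annotations of long-chain fatty acid transport protein 1. In PET 10, 1 was at least 2-fold lower than in the surfactant control, beside 2.3%, and 2 were at least 2-fold lower than in the untreated control, beside 2.03%. That from Q6PCB7 was at 1.51 FPKM in the untreated control, 0.70 in the surfactant control, 0.21 in PET 10 and 2.87 in PET 100, and that from P97849 was at 0.75 FPKM in the untreated control, 0.98 in the surfactant control and 3.85 in PET 100, and was listed at 0 in PET 10. Both passed the filter, with means of 1.32 and 1.40 FPKM, through PET 100, the library in which they were counted as higher. These counts are therefore partly set by the filter.

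Among the genes of fatty acid synthesis, 7 annotations passed the filter. Of these, 0 were 2-fold apart in any comparison, which for so few is near the shares of all annotations given above. Cytoplasmic acetyl-coenzyme A synthetase, which makes acetyl-CoA from acetate, was at 45.7 FPKM in the untreated control, 46.9 in the surfactant control, 70.0 in PET 10 and 62.6 in PET 100, above both libraries without fibres in both PET libraries. Fatty acid desaturase 2, which starts the synthesis of polyunsaturated fatty acids, was at 182 FPKM in the untreated control, 187 in the surfactant control, 219 in PET 10 and 216 in PET 100, with the same order of groups. Malic enzyme, a source of NADPH, lay between 43.5 and 53.1 FPKM and was lowest in PET 100.

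The beta-oxidation list had 8 annotations past the filter. Of these, 0 were 2-fold apart in any comparison, again near the shares of all annotations for so few. The median log2 ratio of the list to the surfactant control was -0.08 in PET 10 and -0.06 in PET 100, beside 0.03 and 0.08 for all annotations. Very long-chain acyl-CoA dehydrogenase, the first enzyme of the mitochondrial spiral, was at 90.8 FPKM in the untreated control, 91.8 in the surfactant control, 79.2 in PET 10 and 82.0 in PET 100. The beta subunit of the trifunctional enzyme was at 69.7 FPKM in the untreated control, 68.4 in the surfactant control, 61.7 in PET 10 and 64.96 in PET 100. The electron transfer flavoprotein subunits, which take electrons from the dehydrogenases, differed little, with the beta subunit between 155 and 167 FPKM and the alpha subunit at 95.4 FPKM in the untreated control, 98.4 in the surfactant control, 102 in PET 10 and 110 in PET 100. Of the ketone body list, 0 of 3 annotations passed the filter.

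Lipases and triglyceride synthesis held few annotations. Bile salt-activated lipase, the main lipid-digesting enzyme of the fish pancreas, was at 802 FPKM in the untreated control, 813 in the surfactant control, 718 in PET 10 and 824 in PET 100. Hepatic triacylglycerol lipase lay between 34.4 and 38.4 FPKM. Of 6 lipase annotations past the filter, endothelial lipase (Q9WVG5) was at least 2-fold lower than the untreated control in the other libraries (background 2.43% in the surfactant control, 2.03% in PET 10 and 1.85% in PET 100), at 2.85 FPKM in the untreated control, 0.32 in the surfactant control, 0.89 in PET 10 and 0.33 in PET 100, while the main endothelial lipase annotation (Q9Y5X9) lay between 25.6 and 27.8 FPKM. Endothelial lipase Q9WVG5 was under 1 FPKM in the libraries other than the untreated control and passed the filter through that library, so its counts are partly set by the filter. Of 4 annotations for triglyceride synthesis past the filter, 1 was 2-fold apart, a low lipin-1 annotation (Q91ZP3) at 5.95 FPKM in PET 10, against 2.63 FPKM in the untreated control (background 3.53%). The main lipin-1 annotation (Q14693), the phosphatidate phosphatase of triglyceride synthesis, was at 33.6 FPKM in the untreated control, 30.9 in the surfactant control, 35.7 in PET 10 and 43.2 in PET 100. Diacylglycerol acyltransferase 1, the last enzyme of that path, lay between 13.1 and 17.3 FPKM and was highest in PET 100.

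Of the regulators listed, 3 annotations passed the filter. Hepatocyte nuclear factor 4-alpha, which in mammals drives apolipoprotein and Mttp genes, was at 14.5 FPKM in the untreated control, 14.1 in the surfactant control, 19.7 in PET 10 and 19.1 in PET 100. Both PET libraries were above both libraries without fibres, with log2 ratios to the surfactant control of 0.46 and 0.42. RXR-beta-A lay between 24.8 and 26.7 FPKM, and the coactivator PGC-1-alpha was at 4.75 FPKM in the untreated control, 4.04 in the surfactant control, 5.29 in PET 10 and 5.77 in PET 100.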

How the data were processed

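RNA of whole larvae was sequenced as 1 library per group. Expression was deposited by the authors as FPKM per assembled contig, per the file headers, and used as deposited; bcl2fastq 2.20.0.422, RSEM and Bowtie are named in the submitters' processing notes, while the sources used here do not state the assembler or the annotation search. FPKM was summed over all contigs of a description, Swiss-Prot entry included, with Python 3.11.15 and pandas 2.3.3. Log2 ratios used a pseudocount of 0.5, annotations with a mean of at least 1 FPKM were kept, and 6 comparisons were made by size alone, at 2-fold and, at or above 10 FPKM, 1.25-fold. The arithmetic was checked by putting known changes on values of these data without noise, which does not test how reliable a call is. The members and gene lists were chosen with earlier results of these data known, as was the 1.25-fold threshold. Members with a mean of at least 10 FPKM, those 2-fold apart from both fibre-free libraries or between these, and Mttp and LPL were named by rule, as were up to 3 abundant annotations per list; cpt2, the other members and some list genes were named after their values were seen. List entries that are members were not counted again. The pseudocount, filter, contig choice, scaling and threshold were varied. No sequence table was at hand, so no sequences are shown.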

Additional observations from a re-analysis of the deposited data

How the results depend on the processing

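No paired analysis was possible because each group is 1 library, and no library could be left out of a group. None of the members at or above 10 FPKM was 2-fold apart, beside 1.41% of all annotations at this level, so the counts rest on low annotations. Of 34 members, 3 in PET 10 and 3 in PET 100 were past 2-fold in either direction against the surfactant control, beside 5.5% and 5.78% of all annotations. Without the filter there were 6 and 8 of 44 (13.2% and 13.7% of all), at a mean of at least 5 FPKM 0 and 0 of 25 (0.958% and 1.2%), with contigs above 0 in every library 1 and 1 of 30 (2.29% and 2.72%), and at 1.5-fold 5 and 6 of 34 (12% and 12.9%). Against the untreated control both PET libraries had 2 (5.57% and 5.54%). In PET 10 and PET 100 there were 4 and 4 without the filter (12.6% and 13.1%), 0 and 0 at 5 FPKM (0.982% and 0.934%), 1 and 0 with contigs above 0 in every library (2.56% and 2.62%), 1 and 0 of 26 per protein name (4.7% and 4.54%), and 7 and 4 at 1.5-fold (11.5% and 12.7%). A pseudocount of 0.1 gave 5 in PET 10 (7.34%). The surfactant control had 5 against the untreated control (5.34%), 2 with a pseudocount of 1 (3.72%), 6 without the filter (11.7%), 0 at 5 FPKM (0.719%), 2 with contigs above 0 in every library (2.37%), 3 per protein name (4.56%) and 6 at 1.5-fold (11.4%). PET 100 had 2 against PET 10 (5.26%), 6 without the filter (13.5%), 0 at 5 FPKM (0.958%), 0 with contigs above 0 in every library (1.96%) and 1 per protein name (4.79%). The members' median of PET 100 against the untreated control was 0.28 with the main contig alone, against 0.18, and that against the surfactant control was -0.03 after median-of-ratios scaling, against 0.07. The median of PET 100 against PET 10, at -0.01, was just above 0 at 5 FPKM (0.001) and per protein name (0.001). Both PET libraries lay below both without fibres in 2 of 25 members at 5 FPKM (11.9%) and 2 of 30 with contigs above 0 in every library (11.5%), against 4. Scaling left 9 of 34 above (17.8% of all) and 7 below (20%), or 6 and 4 of 22 at or above 10 FPKM (14.4% and 25.6%). Family sums without their largest member, against the surfactant control, had log2 ratios of -1.24 for perilipins and -0.069 for CoA ligases in PET 100 (against 0.04), and, in PET 10 and PET 100, of 0.39 and 2.16 for carnitine acyltransferases and -0.26 and -0.22 for LDL receptor-related proteins. With contigs above 0 in every library the receptors were at 0.059 and 0.065 (against -0.07 and -0.05), the carnitine acyltransferases at 1.08 in PET 100 and the perilipins at 0.03 in PET 100 (against -0.02). After scaling, PET 100 was at -0.07 for elongases (against 0.02) and -0.06 for CoA ligases. The near-level sums of receptors, CoA ligases, perilipins and elongases thus changed sign. Which cause lies behind these moves was not tested. Summing per protein name and counting library orders were chosen after seeing the data. FPKM keeps no read counts, so no counting interval or lower limit of detection could be given.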
